A study of Mus musculus with 20 samples.

Results

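The 10 mouse genes *Bpifa1*, *Bpifb1*, *Scgb1a1*, *Reg3g*, *Ltf*, *Muc5b*, *Wfdc2*, *Wfdc18*, *Lcn2* and *Agr2*, which encode secreted proteins or secretory helpers of mucosal surfaces, were taken by name from the 25655 genes of the count tables. The set was chosen by measured values, because the mean level of *Bpifa1* was lower in the OVX + E2 group than in the OVX + RAL group, so that contrast is given as a description with no test. The other 9 genes were put beside *Bpifa1* to ask whether genes of the middle-ear mucosa vary together from library to library. The study measured RNA of the utricle, a vestibular organ of the inner ear, after loss of the ovaries (OVX) and hormone treatment. All mice were female C57BL/6J mice operated at 8 weeks of age, and all received a pellet, so the control mice also carried one. The sham + v mice kept their ovaries and had a vehicle pellet, and the OVX + v mice were ovariectomized and had a vehicle pellet. The OVX + E2 mice were ovariectomized and had a pellet of 50 µg estradiol, and the OVX + RAL mice were ovariectomized and had one of 2.4 mg raloxifene, a selective estrogen receptor modulator. Each group had 5 libraries, named here by their numbers 1 to 20. The labels give them as separate samples and do not say whether animals were pooled, so the p-values measure the spread between these samples.

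*Bpifa1* encodes a small secreted protein with a lipid-binding BPI fold, also known as SPLUNC1, which is abundant in the nasal, tracheal and middle-ear lining, where it takes part in defence against bacteria and in the surface properties of the fluid. *Bpifb1* is a longer relative made by similar secretory cells, and *Scgb1a1*, *Muc5b* and *Agr2* are classical genes of club and mucous cells. The utricle itself is lined by sensory hair cells and supporting cells, bathed in endolymph, and was taken out through the oval window, which opens on the middle ear.

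The 3 sequences below are shown because *Bpifa1*, *Wfdc18* and *Ltf* are the 3 members that had at least 10 counts and a lower mean in OVX + E2 than in OVX + RAL, and because an estrogen receptor was the target of both treatments. They are the 228 bases of the RefSeq promoter table (build GRCm38.p6) that end before the gene, matched once each in GRCm39, on the plus strand. *Bpifa1* is at chr2:153984550-153984777, *Wfdc18* at chr11:83599580-83599807 and *Ltf* at chr9:110848110-110848337, all upstream of the annotated gene. Capitals mark a TATA box (TATAAA) in the first and second and an estrogen half-site (AGGTCA) in the third.
Bpifa1: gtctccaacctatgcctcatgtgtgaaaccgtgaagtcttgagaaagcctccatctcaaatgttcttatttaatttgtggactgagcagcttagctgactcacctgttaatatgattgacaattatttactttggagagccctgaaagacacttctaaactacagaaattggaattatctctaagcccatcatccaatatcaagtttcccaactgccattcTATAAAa
Wfdc18: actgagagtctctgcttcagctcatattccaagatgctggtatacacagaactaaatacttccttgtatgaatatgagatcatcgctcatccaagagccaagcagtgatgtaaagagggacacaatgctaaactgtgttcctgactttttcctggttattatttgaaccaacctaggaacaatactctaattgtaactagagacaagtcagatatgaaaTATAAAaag
Ltf: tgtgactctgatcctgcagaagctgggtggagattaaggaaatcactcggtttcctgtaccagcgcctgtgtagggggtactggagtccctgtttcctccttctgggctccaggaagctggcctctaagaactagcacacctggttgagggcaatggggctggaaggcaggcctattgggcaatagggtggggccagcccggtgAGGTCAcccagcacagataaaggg
Counted from the start site of the promoter table, the TATAAA began 29 bases before it for *Bpifa1* and 31 for *Wfdc18*, and the AGGTCA began 46 bases before it for *Ltf*. Counted from the gene starts annotated in GRCm39, these distances were 29, 42 and 25 bases. In the table, windows of 250 bases before to 50 after a start were held for 8 of the 10 members, 10 windows in all. The full palindrome GGTCANNNTGACC was in 0 of these 10 windows and in 0.07% of all 32851 windows. The half-site, AGGTCA or TGACCT, was in 4 of the 10 (*Bpifb1*, *Ltf* and both windows of *Wfdc2*) and in 16.3% of all windows, and any full palindrome may overlap a half-site. TATAAA or TTTATA was in 3 of the 10 (*Bpifa1*, *Reg3g* and *Wfdc18*) and in 13.6% of all windows. Both strands were searched, and a match is a description of letters only.

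The libraries held 1123053 to 2081747 counts each, so that 3 counts, the floor used here for detection, correspond to 1.44 to 2.67 CPM (counts scaled to the same total in each library). The 5 OVX + E2 libraries were among the shallower ones, with 1123053 to 1507667 counts, beside 1435156 to 2081747 in the others. The labelled tissue was checked by its markers. All 15 hair cell genes of the list, among them *Otof*, *Pou4f3* and *Myo7a*, and 18 of 20 genes of supporting and other vestibular epithelium reached 3 counts in at least 1 library. The summed level of the latter was 12324 to 20262 CPM in every library, and that of the hair cell list 1287 to 2690 CPM. The vestibular list was led by *Coch*, a gene of connective tissue, with a mean of 5807 CPM, before *Otog* (2508 CPM) and *Otos* (2409 CPM). Its sum is therefore not a measure of epithelium alone. Because these were bulk samples, fewer cells of a type and less RNA per cell cannot be told apart.

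The 10 members were very unequal. *Wfdc2* reached 3 counts in all 20 libraries, *Bpifa1* in 13 and *Wfdc18* in 12. The other 7 members reached it in at most 6 libraries each: *Ltf* in 6, *Lcn2* in 3, *Reg3g* in 2, and *Bpifb1* and *Agr2* in 1 each. *Scgb1a1*, the club cell secretoglobin, and *Muc5b*, a gel-forming mucin, had 0 counts in all 20, which allows up to 2.67 CPM in the shallowest library. The set therefore consisted, in these utricles, of 1 gene present everywhere, 2 genes present in most libraries and 7 genes that were rare or at 0.

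**Figure D1:**
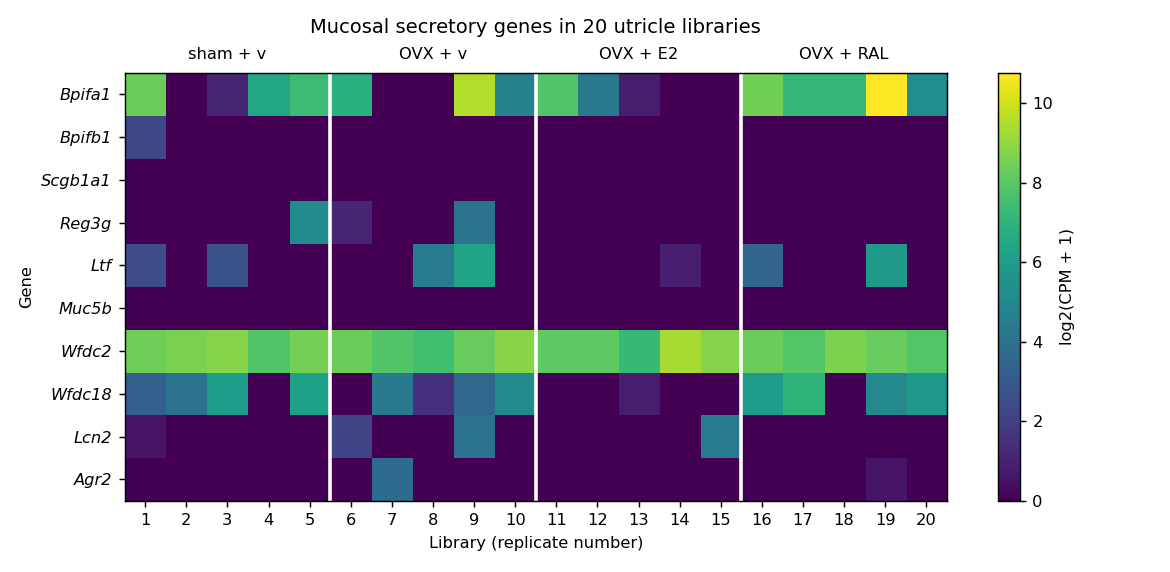
Level of the 10 members (rows) in the 20 libraries (columns, by replicate number, white lines between groups), as log2(CPM + 1) by colour. *Wfdc2* is filled in all 20 libraries, *Bpifa1* in 13 at 3 counts or more and *Wfdc18* in 12, while *Scgb1a1* and *Muc5b* are at 0 throughout.

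*Bpifa1* (chr2:153984800-153991139 in GRCm39, plus strand, 9 exons) is the member the set was built around. In the sham + v libraries it stood at 328, 0, 1.19, 85.5 and 167 CPM (116 ± 137, mean ± SD, n = 5). In the OVX + v libraries it stood at 114, 0, 0, 727 and 26.5 CPM (174 ± 313, n = 5). Each of these groups thus held a library with 328 or 727 CPM beside libraries at or near 0, and the groups overlapped. In the OVX + E2 libraries it stood at 231, 19.6, 0.802, 0 and 0 CPM (50.3 ± 101, n = 5). In the OVX + RAL libraries it stood at 349, 143, 143, 1738 and 37.5 CPM (482 ± 711, n = 5). OVX + RAL was the group in which all 5 libraries reached 3 counts, against 3 of 5 in sham + v, 3 of 5 in OVX + v and 2 of 5 in OVX + E2. Replicate 19 of OVX + RAL alone held 42.3% of the CPM summed over the 20 libraries, and replicate 9 of OVX + v held 17.7%.

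In the contrast that chose the gene, the mean of *Bpifa1* was 9.60 times as high in OVX + RAL as in OVX + E2, and 4 of the 5 OVX + E2 libraries were below every OVX + RAL library. The ratio of means was 3.35 without OVX + RAL replicate 19 and 94.4 without OVX + E2 replicate 11, the OVX + E2 library at 231 CPM. Of the 5 members with at least 10 counts in these 10 libraries, none had groups without overlap, which occurred in 0.669% of all genes with OVX + E2 lower and in 0.24% with OVX + E2 higher.

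The sham + v group was not part of that contrast, and the comparison with OVX + v asks what removal of the ovaries alone did. *Bpifa1* did not pass the test in sham + v against OVX + v (log2 fold change -0.58 ± 0.441 SE, adjusted p = 0.955, quasi-likelihood test of edgeR). The direction rested on 1 library: without OVX + v replicate 9 the log2 fold change was 1.73, and without sham + v replicate 1 it was -1.45. On the log2(CPM + 1) scale of limma the sham + v mean was the higher one, by 0.44. Against OVX + v, *Bpifa1* had a log2 fold change of -1.78 in OVX + E2 and of 1.47 in OVX + RAL, given with no error or test because both groups were used to choose it. Without OVX + v replicate 9 these became 0.52 and 3.78, and without OVX + RAL replicate 19 the second became -0.05. Without OVX + E2 replicate 11 the first became -5.05. Both comparisons share the OVX + v libraries.

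**Figure D2:**
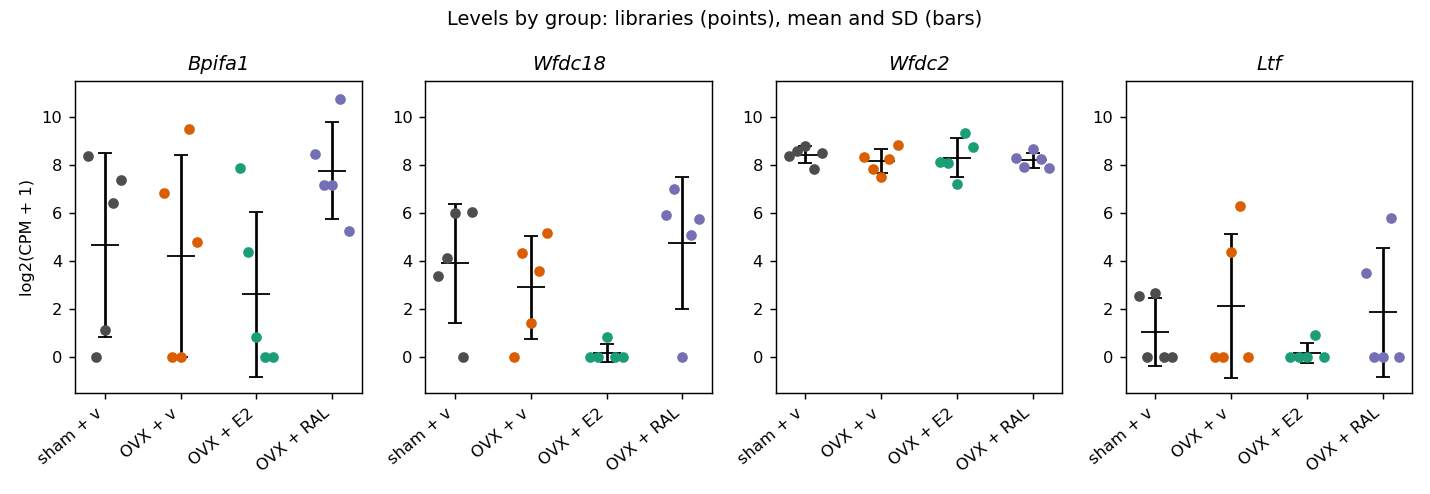
log2(CPM + 1) of *Bpifa1*, *Wfdc18*, *Wfdc2* and *Ltf* in the 4 groups, with 1 point a library (5 a group) and the mean and SD as bars. *Bpifa1* spreads from 0 to 1738 CPM, all 5 OVX + E2 points of *Wfdc18* lie at or near 0, and the *Wfdc2* points lie in a narrow band between 146 and 647 CPM.

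The spread of *Bpifa1* was unlike that of genes with a similar mean. Its mean over 20 libraries was 206 CPM, and 750 other genes had a mean within 1.5-fold of it. Those genes reached 3 counts in a median of 20 libraries, and 0 of them in as few as the 13 of *Bpifa1*. The SD of log2(CPM + 1) within groups was 3.47 for *Bpifa1* against a median of 0.643 for these genes, and 1 of the 750 (0.133%) had one as large. By the same measure *Wfdc2* was ordinary, with an SD of 0.534 against a median of 0.505 for 442 genes of like level, 41.0% of which had one as large. *Wfdc18* was ordinary as well, with 2.15 against 2.23 for 3110 genes. A wide spread was thus common at the level of *Wfdc18* and rare at that of *Bpifa1*. The low OVX + E2 and high OVX + RAL values that chose *Bpifa1* also enter its mean, its detection and its SD. Its place among these genes is therefore a description only.

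**Figure D3:**
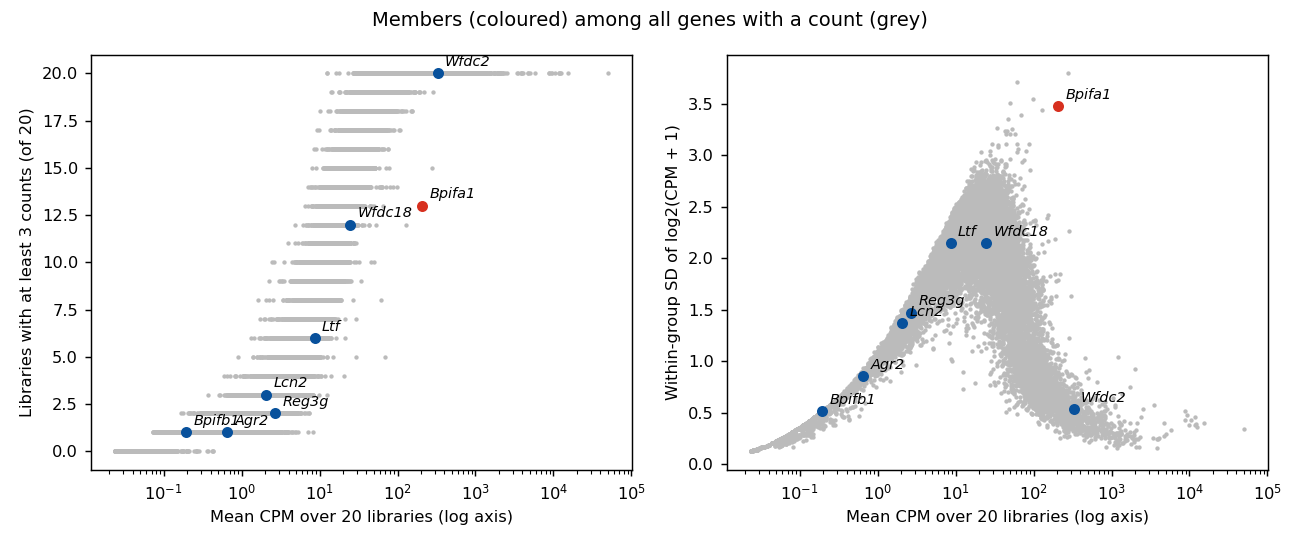
All genes with a count (grey) and the 8 members with a count (coloured), by mean CPM over 20 libraries on a log axis, against the number of libraries with at least 3 counts (left) and the within-group SD of log2(CPM + 1) (right). *Bpifa1* (red) lies off the main cloud in both panels, with 13 libraries and an SD of 3.47, while *Wfdc2* and *Wfdc18* lie inside it.

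The whey acidic protein family was represented by *Wfdc2*, a secreted protease inhibitor-like protein of many epithelia, and *Wfdc18*, a smaller secreted relative. *Wfdc2* stood at 350 ± 78.5 CPM in sham + v, 300.1 ± 107 in OVX + v, 355 ± 193 in OVX + E2 and 299 ± 68.8 in OVX + RAL (SD, n = 5 each). Its libraries ranged from 230.4 to 443 CPM in sham + v, from 181 to 461 in OVX + v, from 146 to 647 in OVX + E2 and from 233 to 402 in OVX + RAL. The ranges of all 4 groups overlapped. *Wfdc2* did not pass the test of edgeR in any comparison with OVX + v: the log2 fold change was 0.22 ± 0.312 (SE) for sham + v, 0.24 ± 0.352 for OVX + E2 and -0.01 ± 0.306 for OVX + RAL, with adjusted p of 0.9998, 0.9997 and 0.9999. With TMM factors, DESeq2 and limma the last value was slightly above 0.

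*Wfdc18* was nearly absent from the OVX + E2 libraries and variable in the others. It had 19, 31, 107, 0 and 99 counts in sham + v, 0, 31, 3, 22 and 50 in OVX + v, and 115, 239, 0, 62 and 110 in OVX + RAL. In OVX + E2 it had 0, 0, 1, 0 and 0 counts, so that it reached 3 counts in 0 of 5 libraries there and in 4 of 5 in each other group. In CPM it stood at 30.9 ± 31.2 in sham + v, 13.4 ± 14.3 in OVX + v, 0.160 ± 0.358 in OVX + E2 and 54.6 ± 47.4 in OVX + RAL (SD, n = 5 each). Summed over libraries, OVX + E2 held 1 count of *Wfdc18* in 6628031 and OVX + v 106 in 8417652, a ratio of rates of 83.5 (95% exact interval 14.7 to 3327). OVX + RAL held 526 in 9491041, a ratio to OVX + E2 of 367 (interval 65.6 to 14536). As a ratio of mean CPM, OVX + v was 83.4 times OVX + E2, and 49.97 times without OVX + v replicate 10, and OVX + RAL was 341 times OVX + E2, and 225 times without OVX + RAL replicate 17. Both rest on the 1 count in replicate 13, without which OVX + E2 has none. These intervals cover counting error only and not the spread between libraries, and the value range of OVX + E2 overlapped each other group at 0. *Wfdc18* did not pass the test in OVX + E2 against OVX + v (adjusted p = 0.453, edgeR). It did not pass in OVX + RAL either, with a log2 fold change of 2.03 ± 1.06 (SE) and adjusted p = 0.446 by edgeR, and 1.43 to 2.76 when 1 library was left out. For sham + v the log2 fold change was 1.21 ± 1.55 (SE), with adjusted p = 0.9998 by edgeR. It was 0.73 without sham + v replicate 5 and 1.94 without OVX + v replicate 10.

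*Ltf* encodes lactoferrin, an iron-binding antimicrobial protein of secretions and of neutrophil granules, and is an estrogen-induced gene of the uterus. It had 10 counts in replicate 1 and 9 in replicate 3 of sham + v, 35 in replicate 8 and 157 in replicate 9 of OVX + v, 1 in replicate 14 of OVX + E2, and 20 in replicate 16 and 104 in replicate 19 of OVX + RAL, with 0 elsewhere. It was thus present in 2 of 5 libraries of each group but OVX + E2, at 2.04 ± 2.80 CPM in sham + v, 19.5 ± 33.7 in OVX + v, 0.178 ± 0.398 in OVX + E2 and 12.97 ± 23.7 in OVX + RAL. The log2 fold change against OVX + v was -3.21 ± 2.40 (SE) in sham + v, with adjusted p = 0.937 by edgeR, and -1.25 without OVX + v replicate 9. In OVX + RAL it was -0.59 ± 1.68, with adjusted p = 0.9999 by edgeR, and 1.37 without OVX + v replicate 9. In OVX + E2 against OVX + v the adjusted p of *Ltf* was 0.351 by edgeR, from 1 count against 192, of which replicate 9 held 157.

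*Lcn2*, the siderophore-binding lipocalin shared by neutrophils and inflamed epithelium, had 1 count in replicate 1, 6 in replicate 6, 32 in replicate 9 and 30 in replicate 15. *Reg3g*, an antibacterial lectin, had 54 counts in replicate 5, 2 in replicate 6 and 34 in replicate 9, and 0 in all OVX + E2 and OVX + RAL libraries. *Agr2*, a protein disulfide isomerase needed for mucin folding, had 20 counts in replicate 7 and 1 in replicate 19, and *Bpifb1*, which lies 41598 bases beyond the end of *Bpifa1*, had 8 counts in replicate 1. These 4 genes each reached 3 counts in 1 to 3 libraries, so their group means rest on 1 or 2 libraries. Replicate 9 of OVX + v was the library with most members at 3 counts, 6 of 10, and the OVX + E2 libraries had 1 or 2 each, beside their lower depth. Replicates 2 and 4 of sham + v and replicate 18 of OVX + RAL also had 2 each.

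Over the set, 0 of the 7 members tested passed an adjusted p of 0.05 by edgeR between sham + v and OVX + v, where 0.0145% of all 13825 genes tested did. For OVX + E2 and OVX + RAL against OVX + v, 0 of the 6 members tested without *Bpifa1* passed, where 0.0584% and 0.0286% of all genes did. At an unadjusted p under 0.05, edgeR gave 1 member (*Agr2*), 3 (*Agr2*, *Ltf* and *Reg3g*) and 2 (*Lcn2* and *Reg3g*) in the 3 comparisons, against 12.5%, 13.9% and 12.1% of all genes. DESeq2 passed 0 members in each comparison, where 0.00723%, 0.256% and 0.0286% of all genes passed. At an unadjusted p under 0.05 it gave 0, 2 (*Ltf* and *Wfdc18*) and 0 members, against 4.95%, 5.24% and 5.05% of all genes. Each member named here had at most 1 count in the group set against OVX + v and was in the test through its OVX + v counts, so nothing is read from these numbers. Limma gave 0 members by both measures, against 0.0289%, 0.0803% and 0.0357% of all genes at the adjusted and 4.27%, 5.46% and 4.57% at the unadjusted threshold. For the same reason no median of the members' fold changes is given.

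Whether the members varied together was examined over the 20 libraries with the group means removed, for the 3 members with at least 3 counts in 10 libraries or more. *Bpifa1* and *Wfdc2* had a Pearson's r of -0.001268 (p = 0.9961, adjusted 0.9961) and a Spearman's rho of -0.02634 (p = 0.9209, adjusted 0.988) by a permutation test within groups. *Bpifa1* and *Wfdc18* had an r of -0.1257 (p = 0.6154, adjusted 0.9961) and a rho of -0.1443 (p = 0.5779, adjusted 0.988) by the same permutation test. *Wfdc2* and *Wfdc18* had an r of 0.04572 (p = 0.8139, adjusted 0.9961) and a rho of 0.003774 (p = 0.988) by permutation. Over the 20 libraries no pair of the 3 passed the test, two-sided and adjusted over these 3 pairs. *Wfdc18* had at most 1 count in each OVX + E2 library, so the pairs with it rest on the other 15 libraries. In OVX + E2 and OVX + RAL alone its r with *Wfdc2* was -0.4119 (permutation p = 0.01354, adjusted 0.04062), which passed the threshold. The rho there was -0.5565 (permutation p = 0.02341, adjusted 0.07023), which did not. Both values come from the 5 OVX + RAL libraries in the main, with replicate 18 at 0 counts. In the 10 sham + v and OVX + v libraries alone the r of this pair was 0.5913 (permutation p = 0.08462, adjusted 0.2539). Before group means are removed, 5 libraries at 0 counts tie as the farthest from the median of *Bpifa1*, and without replicates 2 and 15, which are among these, the first 2 r were 0.09532 and -0.1335. With group means removed, replicates 9 and 11 were the farthest from the median, and without them these r were 0.0262 and -0.1923. Since *Bpifa1* had at most 2 counts in 7 libraries and at least 26 in 13, r was also taken within the 13, where it was 0.0247 with *Wfdc2* and 0.02184 with *Wfdc18*. Among 9322 other genes the r with *Bpifa1* had a median of 0.01693 and a 99th percentile of 0.5559, and 52.47% were at or above *Wfdc2* and 69.64% at or above *Wfdc18*.

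The rarer members could be compared with *Bpifa1* by presence alone. Of the 6 libraries with *Ltf*, 4 also held *Bpifa1*, and of the 12 with *Wfdc18*, 8 did, while *Bpifa1* itself was in 13 of 20. Both libraries with *Reg3g*, 2 of 3 with *Lcn2* and the 1 with *Bpifb1* held it, and the 1 with *Agr2* did not. The 2 libraries with the most *Bpifa1*, replicates 19 and 9, were also the 2 with the most *Ltf*, at 54.6 and 77.8 CPM, whereas *Wfdc18* was highest in replicate 17 and *Wfdc2* in replicate 14, which had 0 counts of *Bpifa1*.

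A longer list of 40 other mucosal secretory genes was looked at for the same purpose. Of these, 20 had no count in any library, among them the mucin *Muc5ac*, the secretoglobins *Scgb3a1* and *Scgb3a2* and the trefoil genes *Tff1*, *Tff2* and *Tff3*, and 18 reached 3 counts in at least 1 library. The 4 with the highest mean were *Lyz2*, the lysozyme of macrophages, *Agr3*, a relative of *Agr2*, the protease inhibitor *Slpi* and *Cyp2f2*, a cytochrome P450 of club cells. *Lyz2* was at 3 counts in all 20 libraries and *Agr3* in 18, *Slpi* in 16 and *Cyp2f2* in 11. In the list, 12, 14 and 15 genes were tested in sham + v, OVX + E2 and OVX + RAL against OVX + v, and 0 passed an adjusted p of 0.05 by edgeR. Some of them reached 10 counts through 1 group, such as *Bpifb4* and *Gabrp*, so no median is given.

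*Cyp2f2* varied widely between libraries. It was at 255 CPM in replicate 19, 76.3 in replicate 11, 67.3 in replicate 17, 42.9 in replicate 1, 38.5 in replicate 5 and 28.5 or less in the other libraries, with 0 in 8 of them. Replicate 9, the second highest for *Bpifa1*, had 1.49 CPM of *Cyp2f2*, and replicate 14, with 0 counts of *Bpifa1*, had 28.5 CPM. Its r with *Bpifa1* was 0.4472, with 4.021% of genes at or above it, counting *Cyp2f2* and *Bpifa1* themselves. *Cbr2*, a carbonyl reductase of airway lining cells, had an r of 0.5354, with 1.319% of genes at or above it, and was highest, at 58.8 CPM, in the same replicate 19. Both genes were thus in the upper part of the distribution of r, and 123 genes of all kinds stood at or above *Cbr2*, counting *Cbr2* and *Bpifa1* themselves. *Cbr2* and *Cyp2f2* had the highest r of the correlated genes of the list. *Slpi*, *Agr3* and *Msln* had an r of 0.001897, 0.01824 and 0.02159, and *Lpo* and *Wfdc1* of -0.2377 and -0.1497. The 10 genes of the list that could be correlated had a median r of 0.1366, 8 above 0 and 2 below. The 17 genes of the supporting and other vestibular epithelium list, *Coch* of the connective tissue among them, had a median of 0.1492, 10 above 0 and 7 below. Replicate 19 also had the highest summed level of the list, 888 CPM, and most listed genes at 3 counts, 11 of 40, including *Muc1* with 28 counts and *Gabrp* with 37. The mean of *Cyp2f2* was 16.4 ± 22.2 CPM in sham + v, 2.72 ± 4.01 in OVX + v, 20.95 ± 33.3 in OVX + E2 and 71.1 ± 106 in OVX + RAL (SD, n = 5 each). In OVX + RAL against OVX + v its log2 fold change was 4.66 ± 1.14 (SE), which did not pass the test (adjusted p = 0.167, edgeR). It was 3.17 without OVX + RAL replicate 19, with adjusted p = 0.779, and 6.04 without OVX + v replicate 8, with adjusted p = 0.00691 by edgeR. With 1 library left out in turn, 4 of 10 fits passed, and over all alternatives the adjusted p ran from 0.00691 to 1.

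**Figure D4:**
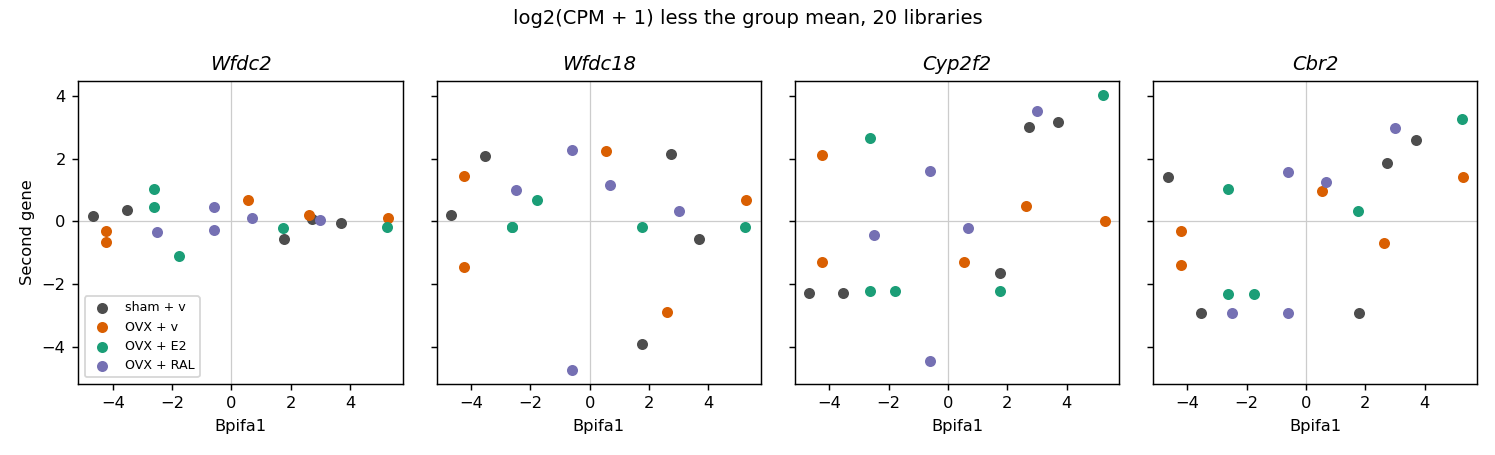
log2(CPM + 1) less the group mean of *Bpifa1* (horizontal axis) against that of *Wfdc2*, *Wfdc18*, *Cyp2f2* and *Cbr2* (vertical axis), 1 point a library, coloured by group. *Wfdc2* is flat (r = -0.001268) and *Wfdc18* scattered (r = -0.1257), while *Cyp2f2* (r = 0.4472) and *Cbr2* (r = 0.5354) tend upward. The last pair are the genes with the highest r of the list of other mucosal secretory genes.

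Among the 10 genes whose pattern was most like that of *Bpifa1* over 20 libraries, by r of the centred log2(CPM + 1), were *Cnnm4* (r = 0.8717, rho = 0.8594), *Acrbp* (r = 0.825), *Ndfip1*, *Ap2a2*, *Kctd11*, *Atpif1*, *Wdr5*, *Slc25a32* and *Zranb1* (r = 0.7063). None of these is in any of the lists. For the summed counts of the 10 members, in which *Bpifa1* and *Wfdc2* dominate, they were *Cryl1* (r = 0.8133), *Adpgk*, *Lrsam1*, *Cwc15*, *Stau1*, *Zbtb21*, *Csnk1g3*, *Mrpl16*, *Pik3ip1* and *Rpp30* (r = 0.6993). These are the top of 9322 correlations over 20 libraries that share their depth, and are given as a description. Among the listed genes, the highest r with *Bpifa1* was that of *Coch*, at 0.6368. *Coch* is a gene of the vestibular and cochlear connective tissue, held here in the list of supporting and other vestibular epithelium.

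*Ltf* and *Lcn2* are also granule genes, and the level of the other 13 granule genes of neutrophils and bone marrow is given beside them. Of these, 8 reached 3 counts in at least 1 library, none in 10 or more, and *Mpo*, *Elane*, *Cd177*, *Mmp8* and *Ctsg* were at 0 in all 20. Their summed level was 0 to 145 CPM in sham + v, 0 to 125 in OVX + v, 0 to 21.7 in OVX + E2 and 0 to 80.2 in OVX + RAL. The sum was under 1 CPM in libraries of every group. By library, the sum was 145 CPM in replicate 1, 125 in replicate 9 and 52.5 in replicate 16, which held *Ltf*, but 0.593 in replicate 3, 1.70 in replicate 8 and 6.30 in replicate 19, which held it too. It was also 119 CPM in replicate 6 and 80.2 in replicate 20, which had 0 counts of *Ltf*. *Lcn2* in replicates 6, 9 and 15 stood beside sums of 119, 125 and 21.7 CPM. The part of these cells in the *Ltf* and *Lcn2* values was not tested.

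**Figure D5:**
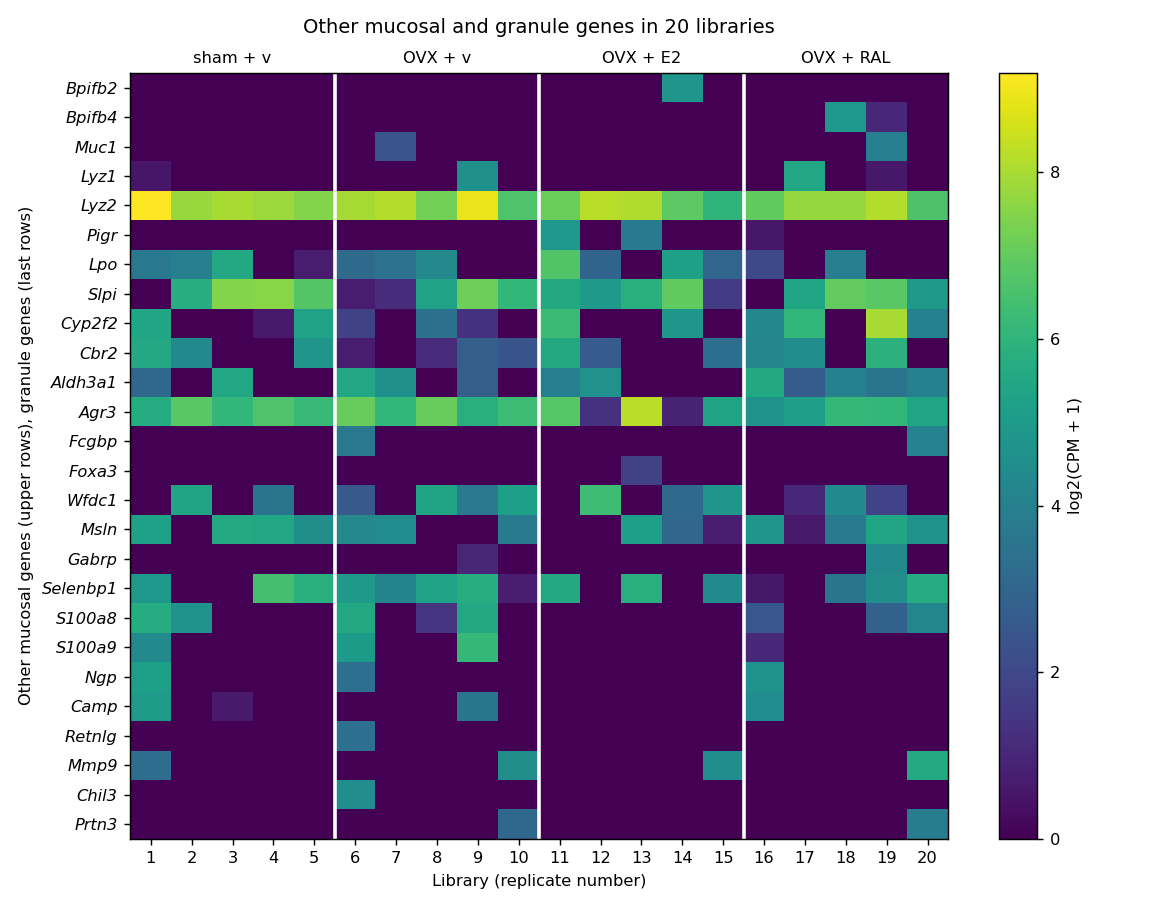
Level, as log2(CPM + 1) by colour, of the 18 other mucosal genes (upper rows) and the 8 granule genes (last rows) that reached 3 counts, in the 20 libraries by replicate number. *Lyz2* is filled throughout, *Cyp2f2* is brightest in replicate 19, and the granule genes are filled mainly in replicates 1, 6, 9, 16 and 20.

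The remaining lists gave the setting of the epithelia. Of 19 simple epithelium genes, 18 reached 3 counts, and *Cdh1*, *Epcam*, *Cldn7* and *Cldn3* were the highest. Of 19 genes of multiciliated cells, 17 did, with *Dynlrb2*, *1110017D15Rik*, *Cfap126* and *Foxj1* the highest, and their sum was 189 to 632 CPM. The basal and squamous list had 8 of 11 genes, the plasma and B cell list 4 of 8, and the 10 further uterine estrogen targets 9, with *Igf1*, *Wnt4*, *Padi1* and *Ccnd1* the highest. The 3 estrogen receptor genes *Esr1*, *Gper1* and *Esr2* summed to 0 to 126 CPM a library and reached 3 counts in 7, 6 and 3 libraries. Over all 157 listed genes that are no members, none of those tested in sham + v, OVX + E2 or OVX + RAL against OVX + v passed an adjusted p of 0.05 by edgeR, DESeq2 or limma. At an unadjusted p under 0.05 edgeR gave 19 (18.1%), 21 (20%) and 22 (20.2%) of the tested genes, beside 12.5%, 13.9% and 12.1% of all genes. DESeq2 gave 6 (5.71%), 3 (2.86%) and 6 (5.51%), beside 4.95%, 5.24% and 5.05% of all genes, and limma 9 (8.57%), 3 (2.86%) and 7 (6.42%), beside 4.27%, 5.46% and 4.57%. Some listed genes were in a test through the counts of 1 group, such as *S100a8* and *S100a9*, which had 0 counts in OVX + E2. In OVX + E2 against OVX + v, edgeR gave 75% of the tested granule genes and 0% of the hair cell genes. Nothing is therefore read from these shares. The median r of the simple epithelium genes with *Bpifa1* was -0.0101 and that of the multiciliated genes -0.06374.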

How the data were processed

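RNA of the mouse utricle from 4 groups of 5 libraries was analysed. As the methods describe, 3' mRNA libraries were made from 1 ng of total RNA and sequenced for 75 cycles. The authors trimmed reads (12 bases at the 5' end, none kept under 20 bases), mapped them to GRCm39 (release 105) in CLC Genomics Workbench and deposited total counts per gene, raw and not normalized. The paper states that mapping used the default settings of that program. Its version, and what these settings did with reads matching more than 1 gene, are not given in the sources used here. Of the last 400 bases of each member, 0 of 338 windows of 63 bases occurred in another gene. The deposited CPM, TPM and RPKM columns and the authors' own comparisons (fold changes, p-values, FDR) were not used. One file holds 3 stacked tables, of which the first was used, and 0 columns belong to samples outside the series.

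The members and lists were chosen with earlier results of these data known. The named genes are the 10 members, listed genes that passed the test, up to 4 genes of each list with the highest mean, and the 10 genes most like *Bpifa1* or the members' sum (1 of them is not reported here); single listed genes beyond these were named after their values were seen. CPM was calculated from column totals. Genes with at least 10 counts over the fitted libraries were tested with edgeR 4.0.16 (quasi-likelihood, total count as library size, Benjamini-Hochberg over all genes, threshold 0.05) in R 4.3.3, in fits of each group with OVX + v alone. Standard errors are the log2 fold change over the square root of F. Alternatives were TMM, DESeq2 1.42.0, limma 3.58.1 on log2(CPM + 1), other filters, the robust fit, 1 fit of all 4 groups, and leaving out each library. Correlations used Python 3.11.15 with numpy 2.4.6, scipy 1.17.1 and pandas 2.3.3 (100000 permutations within groups), and plots matplotlib 3.10.9. The scripts were tested on simulated data. Depth was 1123053 to 2081747 counts a library, and without molecular identifiers, intervals and floors cover counting error only.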

Additional observations from a re-analysis of the deposited data

Results flagged for a closer look

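In groups of 5 libraries, 1 library stood far from the other 4 in 21 of 64 groups looked at, where chance gives about 1 in 20 (3.2). Several of these are genes at 0 in the other 4 libraries of the group. For *Bpifa1* these were OVX + v replicate 9 (727 CPM), OVX + E2 replicate 11 (231 CPM) and OVX + RAL replicate 19 (1738 CPM). For *Ltf* they were OVX + v replicate 9 (77.8 CPM), OVX + E2 replicate 14 (0.890 CPM) and OVX + RAL replicate 19 (54.6 CPM). For *Lcn2* they were sham + v replicate 1 (0.487 CPM), OVX + v replicate 9 (15.8 CPM) and OVX + E2 replicate 15 (21.04 CPM). *Reg3g* stood high in sham + v replicate 5 (35.8 CPM) and OVX + v replicate 9 (16.8 CPM), *Agr2* in OVX + v replicate 7 (12.5 CPM) and OVX + RAL replicate 19 (0.525 CPM), *Bpifb1* in sham + v replicate 1 (3.90 CPM) and *Wfdc18* in OVX + E2 replicate 13 (0.802 CPM). A gene at 0 in the other 4 libraries stands apart whatever its count, and the values of *Ltf* in replicate 14, *Lcn2* in replicate 1, *Wfdc18* in replicate 13 and *Agr2* in replicate 19 are each 1 count.

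Of the summed lists, the granule genes stood high in sham + v replicate 1 (145 CPM) and OVX + E2 replicate 15 (21.7 CPM), the plasma and B cell genes in sham + v replicate 5 (62.3 CPM), the hair cell genes in OVX + RAL replicate 18 (2159 CPM) and the estrogen receptors in sham + v replicate 2 (48.3 CPM). The simple epithelium genes stood low in OVX + v replicate 7 (858 CPM).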

How the results depend on the processing

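No paired analysis was possible because the library numbers 1 to 20 are each used once and the groups share none. With *Bpifa1* left out of the OVX + E2 and OVX + RAL comparisons, where it was not tested, the count of members that passed was 0 in every alternative run. Over all genes, 2 passed in sham + v against OVX + v, and 1 with TMM, 1 with DESeq2, 0 with the default filter of edgeR, 4 with limma, 0 with the robust fit, 1 in the fit of all 4 groups and 1 to 10 when 1 library was left out. In OVX + E2, 8 passed, and 35 with DESeq2, 1 with the default filter, 4 with the robust fit, 2 in the fit of all 4 groups and 6 to 17 with 1 library left out. In OVX + RAL, 4 passed, and 0 with the default filter, 0 with the robust fit, 1 in the fit of all 4 groups and 3 to 11 with 1 library left out. Directions of log2 fold changes turned as follows. *Bpifa1* in sham + v was 0.44 with limma and -1.45 to 1.73 with 1 library left out. *Reg3g* there was -0.0244 with limma and -5.70 to 4.23. *Lcn2* in OVX + E2 was -0.37 with limma and -5.60 to 2.07, and *Wfdc2* there -0.0906 to 0.45. In OVX + RAL, *Ltf* was -2.89 to 1.37, and *Wfdc2* 0.0283 with TMM, 0.0198 with DESeq2, 0.0347 with limma and -0.14 to 0.20. The r of *Bpifa1* with *Wfdc2* was 0.1704 in sham + v and OVX + v alone, 0.09532 without replicates 2 and 15, 0.0262 without replicates 9 and 11 and 0.0247 in the 13 libraries with *Bpifa1*, the last 2 alternatives chosen after seeing the data, and -0.1327 to 0.1382 with 1 library left out. That with *Wfdc18* was 0.2222 without centring and 0.02184 in the 13 libraries. *Wfdc2* with *Wfdc18* was -0.4119 in OVX + E2 and OVX + RAL alone (*Wfdc18* had at most 1 count in each OVX + E2 library), -0.05607 with a pseudocount of 0.1, and -0.1289 to 0.255 with 1 library left out. The first of these passed the permutation test (adjusted p = 0.04062), where the main setting did not (adjusted p = 0.9961). The causes were not tested. Low depth limits all members but *Wfdc2* and the higher *Bpifa1* libraries: at 1.44 to 2.67 CPM for 3 counts, a lower level could not be told from absence. TMM moved the median of all genes in OVX + E2 against OVX + v from -0.06 to -0.17 and limma to -0.46, and limma moved that of sham + v from -0.02 to -0.15.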
